A study of Mus musculus with 4 samples.

Results

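The T cell receptor beta variable segments (Trbv genes) are the 35 genes whose GENCODE symbol starts with Trbv, of 50600 genes in the deposited files. All 35 lie on mouse chromosome 6, and GENCODE types 22 of them as functional variable segments and 13 as variable pseudogenes. RNA of primary T cells of C57BL/6NJ mice was sequenced in 4 libraries that form 1 group, numbered as biological replicates 1 to 4. The labels give 1 donor identifier for all 4, age and developmental stage as unknown and sex as not collected, and do not say how many animals the libraries came from, so p-values measure only the spread between these 4 libraries. A protocol for differentiation of CD4+ T cells is linked in the labels, and the file headers carry the words Th0 and activated with 16 h, which the labels do not repeat. The libraries are not repeats of a single source: Xist, the inactivation RNA that female cells make and male cells hardly make, lay at 141 and 116 TPM in replicates 1 and 2 and at 0.269 and 0.303 TPM in replicates 3 and 4.

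Each beta chain gene is assembled in the thymus, when the RAG recombinase joins 1 variable (V), 1 diversity (D) and 1 joining (J) segment, and the joined exon is spliced to a constant (C) region. The V segment encodes the leader peptide and most of the variable domain, including the loops that contact the major histocompatibility complex, and its 3′ end opens the third, hypervariable loop at a conserved cysteine. In a mature T cell the segment that was joined is the one transcribed with the constant region. Counts over V segments in bulk RNA are therefore read here as the usage of a population. Whether each counted pair came from a joined segment, or from a join that encodes a protein, was not measured. Fewer cells that use a segment and less RNA per cell cannot be told apart in bulk RNA.

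The 3′ ends of the segments that the results turn on are shown first, because this is the stretch that enters the hypervariable loop. Each line gives the last 45 bases of the segment's GENCODE transcript, 5′ to 3′ on the coding strand, with the conserved cysteine codon in capitals. Coordinates are mm10, and Trbv31 alone is on the minus strand. The most used segment and the inverted segment open the list, followed by the Trbv13 and Trbv12 families and the other highly used Trbv3, Trbv16 and Trbv2.
Trbv1 (chr6:40891841-40891885, plus strand): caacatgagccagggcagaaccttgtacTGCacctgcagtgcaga
Trbv31 (chr6:41557691-41557735, minus strand): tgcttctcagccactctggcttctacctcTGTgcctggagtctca
Trbv13-1 (chr6:41116424-41116468, plus strand): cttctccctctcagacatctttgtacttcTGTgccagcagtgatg
Trbv13-2 (chr6:41121788-41121832, plus strand): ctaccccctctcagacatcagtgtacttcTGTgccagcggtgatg
Trbv13-3 (chr6:41130541-41130585, plus strand): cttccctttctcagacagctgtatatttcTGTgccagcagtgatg
Trbv12-1 (chr6:41114023-41114067, plus strand): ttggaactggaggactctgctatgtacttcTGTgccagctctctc
Trbv12-2 (chr6:41119320-41119364, plus strand): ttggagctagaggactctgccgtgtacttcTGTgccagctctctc
Trbv3 (chr6:41048784-41048828, plus strand): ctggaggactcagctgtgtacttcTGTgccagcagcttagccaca
Trbv16 (chr6:41152186-41152230, plus strand): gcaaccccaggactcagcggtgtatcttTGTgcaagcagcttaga
Trbv2 (chr6:41047951-41047995, plus strand): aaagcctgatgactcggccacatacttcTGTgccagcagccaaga

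All 22 functional segments carried a cysteine codon of this kind near the 3′ end, TGT in 20 and TGC in 2, with 11 to 18 bases after it. The letters TGTGCCAGC, which begin with this codon, stood in the last 45 bases of 13 of the 22 functional segments and of 4 of the 13 pseudogenes. The same letters stood in the last 45 bases of 36 of 141652 other GENCODE transcripts (0.0254%), and their reverse complement in 28 of them. Trbv1, Trbv31 and Trbv16 were among the highly used segments without these letters.

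The ends of 3 more segments, shown because they carry stop codons or mark a contrast with one, are those of Trbv4, Trbv24 and Trbv26. Capitals here mark the cysteine codon and any stop codon in frame with it.
Trbv4 (chr6:41059842-41059886, plus strand): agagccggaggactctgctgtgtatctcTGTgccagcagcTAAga
Trbv24 (chr6:41218513-41218557, plus strand): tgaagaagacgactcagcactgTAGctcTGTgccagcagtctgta
Trbv26 (chr6:41227949-41227993, plus strand): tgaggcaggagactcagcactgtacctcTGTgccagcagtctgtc
Trbv4, typed as functional, was the single functional segment with an in-frame stop, a TAA that ends 2 bases before the germline 3′ end. That stretch is where recombination trims and adds bases. In Trbv24, typed as a pseudogene by GENCODE, the codon 2 before the cysteine codon reads TAG, a stop, where 20 of the 22 functional segments have the tyrosine codons TAC or TAT.

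Trbv counts were 9471, 8370, 10806 and 7716 read pairs in replicates 1 to 4, of 53619400, 48931322, 63313389 and 46192242 counted pairs. They made up 0.0171% ± 0.000396 of a library (SD, n = 4), with values from 0.0167 to 0.0177%. Summed over segments the level was 1434.5 ± 22.3 TPM, a unit in which counts are divided by the length of a gene's exons and then scaled so that every library has the same total. The values below are each segment's share of the summed Trbv counts unless TPM is named. A count of 0 allowed a share of up to 0.0278 to 0.0389% of the summed Trbv counts, depending on the library, and this limit covers counting error only.

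Usage was uneven, and its order held in all 4 libraries at the top. Trbv1 led with 12.1% ± 1.07 of the summed Trbv counts and Trbv31 was second with 10.5% ± 0.242 (SD, n = 4), in every library. The 9 segments above 5% together held 76.2%, 10 more lay between 1 and 5%, and 5 with a count lay under 1%. The effective number of segments, the number of equally used segments with the same Shannon entropy, was 15.9 ± 0.0719 (n = 4), and the 10 most used segments of each library held 80.4% ± 0.472.

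**Figure D1:**
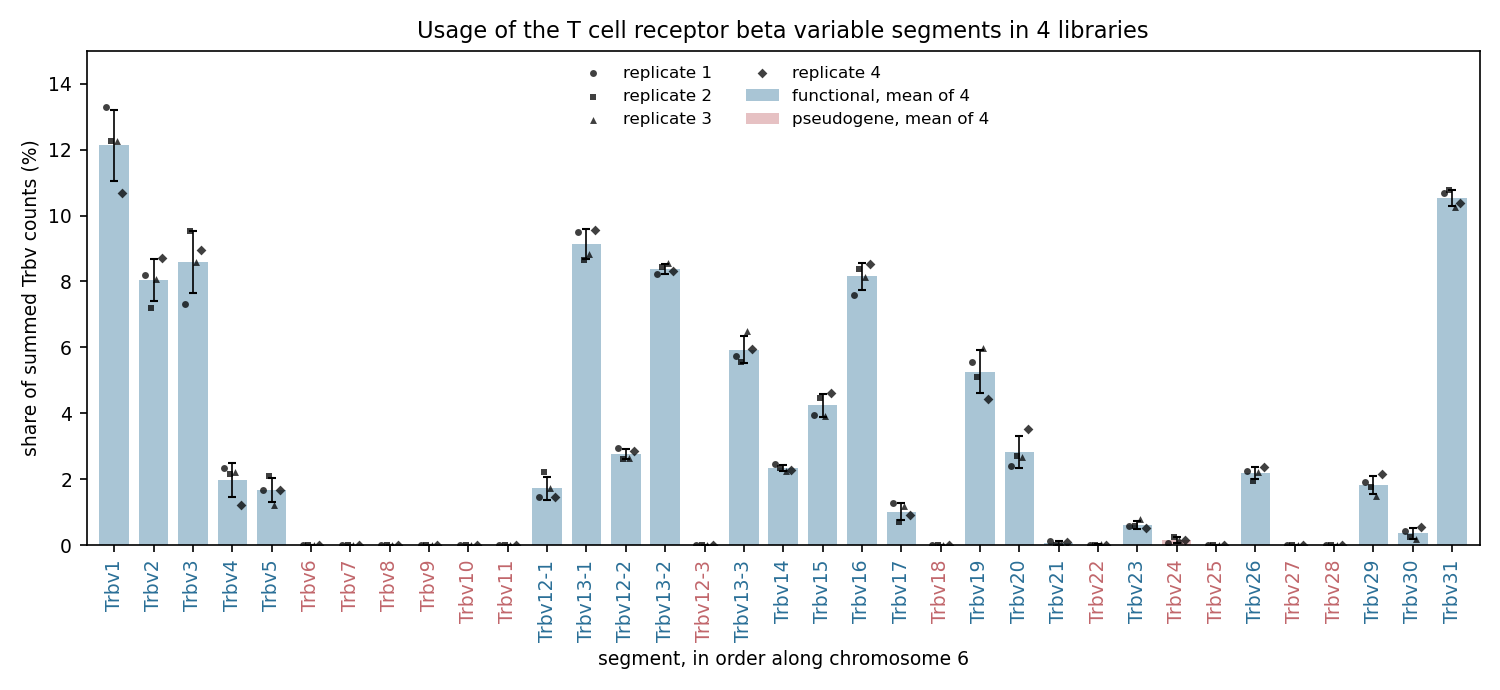
Share of the summed Trbv counts (percent) for each of the 35 segments in their order along chromosome 6. Bars are means over the 4 libraries, error bars 1 SD, points the replicates, blue functional and red pseudogene segments. Trbv1 at 12.1% and Trbv31 at 10.5%, the 2 ends of the array, stand highest, and 11 pseudogenes lie at 0.

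Trbv1, the segment farthest from the D segments, held 13.3, 12.3, 12.3 and 10.7% of the summed counts in replicates 1 to 4, or 167 ± 16.3 TPM. Replicate 4 was the lowest and replicate 1 the highest, and its 95% Wilson interval there, 12.6 to 14.0%, lay above the values of the other 3 libraries. Trbv31, the inverted segment beyond the constant regions, held 10.7, 10.8, 10.3 and 10.4% (145 ± 4.22 TPM). Its range overlapped that of Trbv1 and lay above that of Trbv13-1.

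The Trbv13 family, long known as V beta 8 and recognised by the superantigen staphylococcal enterotoxin B, was the family with the highest summed usage here. Trbv13-1 held 9.50, 8.66, 8.83 and 9.56%, Trbv13-2 8.24, 8.43, 8.57 and 8.31% and Trbv13-3 5.73, 5.54, 6.51 and 5.96% in replicates 1 to 4. The 3 together held 23.5% ± 0.580. Trbv13-2 had the steadiest share of the 19 segments at a mean of 1% or more, with a coefficient of variation of 1.75%. Its SD, 0.147 percentage points, was below the 0.293 that read counting alone gives, so this rank need not be a trait of the segment.

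Trbv3, Trbv16 and Trbv2 shared the next level. Trbv3 held 7.33, 9.55, 8.58 and 8.94%, lowest in replicate 1 and highest in replicate 2. Trbv16, the former V beta 11, which the myelin-reactive 2D2 receptor carries, held 7.60, 8.39, 8.13 and 8.53%. Trbv2 held 8.19, 7.19, 8.08 and 8.71%. The ranges of Trbv13-1, Trbv3, Trbv13-2, Trbv16 and Trbv2 overlapped from each segment to the next in this order, so their order is not settled by 4 libraries. By share the range of Trbv2 lay above that of Trbv13-3. By TPM, which divides by exonic length, the order was reversed. Trbv2 lay at 72.7 to 89.4 TPM and Trbv13-3 at 92.3 to 109.7 TPM.

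Trbv19, the former V beta 6, held 5.54, 5.10, 5.99 and 4.45%, lowest in replicate 4. Trbv15, the former V beta 12, held 3.96, 4.47, 3.91 and 4.63%. Its range overlapped that of Trbv19 and lay above that of Trbv20. By TPM Trbv15 had the higher mean, 65.9 ± 5.11 against 53.6 ± 6.92 for Trbv19.

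Of the other segments between 1 and 5%, Trbv20 held 2.42, 2.70, 2.67 and 3.54%, highest in replicate 4. Trbv12-2 held 2.94, 2.62, 2.64 and 2.86%, and Trbv12-1, its neighbour of the same family (the former V beta 5, which the OT-I and OT-II receptors carry), 1.46, 2.22, 1.74 and 1.48%. Trbv14 held 2.45, 2.34, 2.25 and 2.29%, in a range below that of Trbv12-2 throughout. Trbv26, the former V beta 3, held 2.25, 1.94, 2.21 and 2.37%.

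Trbv4 held 2.33, 2.17, 2.22 and 1.22%, so that replicate 4 lay well below the other 3. Trbv29 held 1.91, 1.76, 1.50 and 2.15%, and Trbv5 1.67, 2.10, 1.22 and 1.68%. Trbv17, the last segment at a mean of 1% or more, held 1.28, 0.693, 1.20 and 0.907%. From Trbv14 down to Trbv17 no neighbour in the order of means was parted from the next by its range. Over the whole order of the 22 functional segments 5 of 21 neighbouring pairs were parted in this way, and 9 of 21 had the same order in all 4 libraries. These counts hold for shares. By TPM the ranges of Trbv31 and Trbv13-1, of Trbv15 and Trbv20, and of Trbv12-2 and Trbv14 overlapped. Those of Trbv2 and Trbv13-3 were parted the other way.

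The remaining functional segments were rare. Trbv23 held 0.621% ± 0.119, Trbv30, the last segment before the D segments, 0.359% ± 0.171, and Trbv21 0.0739% ± 0.0531 from 13, 1, 6 and 7 read pairs in replicates 1 to 4. Trbv30 and Trbv21 had ranges that did not overlap. Trbv21 also had the shortest coding stretch of the functional segments, 291 bases against 334 to 372 in the others.

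Position along the chromosome was recorded from the coordinates in the files. Trbv1 lies 155.454 kb before Trbv2, and Trbv1 to Trbv30 span 390.762 kb. The next variable segment, Trbv31, lies 9.338 kb past Trbc2. With the 35 segments in chromosomal order, the first 12 held 34.1% ± 1.14 of the summed counts, the next 12 held 50.1% ± 0.958 and the last 11 held 15.8% ± 0.479, of which Trbv31 alone gave 10.5%. The first 12 contain 6 functional segments, the next 12 contain 10 and the last 11 contain 6.

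Across the 21 functional segments upstream of the D segments, the mean share was higher at larger distance from Trbd1 (Pearson r = 0.66, Spearman rho = 0.56). Without Trbv1 the values were 0.51 and 0.49 over 20 segments. With mean TPM in place of the share they were 0.61 and 0.51, and 0.44 and 0.43 without Trbv1. The share itself rose with exonic length over 22 functional segments (r = 0.39, rho = 0.36). The share also followed the GC content of the transcript over 22 functional segments (r = 0.65, rho = 0.64), and distance and GC content were themselves related over the 21 (r = 0.45, rho = 0.42). These are descriptions across segments of a single locus, which share libraries, depth and base composition, and no test was made. Trbv31 does not follow the distance relation: it lies 24.5 kb from Trbd1, on its far side, and was the second most used.

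**Figure D2:**
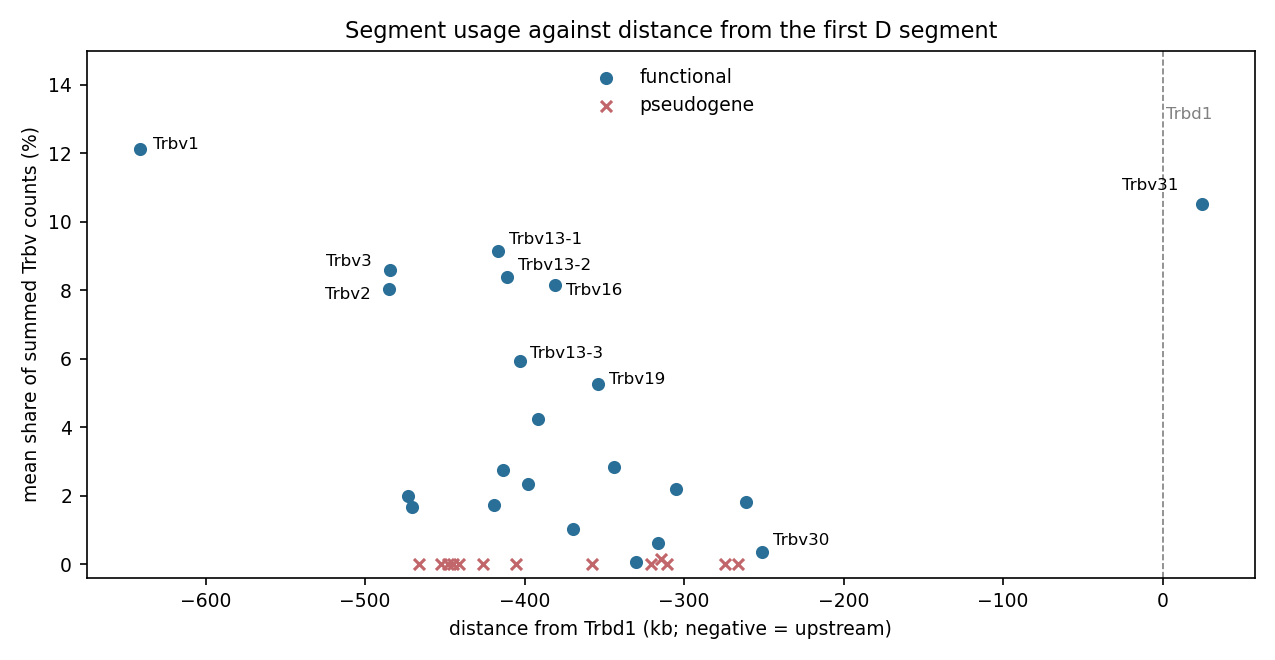
Mean share of the summed Trbv counts (percent, 4 libraries) against distance from Trbd1 in kb, with upstream distances negative. Functional segments are blue points and pseudogenes red crosses; Trbv1, 641 kb upstream, and Trbv31, 24.5 kb downstream, hold the 2 highest shares.

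Neighbouring segments were used at unlike levels. The Trbv12 and Trbv13 families alternate along the chromosome in 3 pairs, with gaps of 1939, 2031 and 2070 bases between the 2 members. Trbv13-1 exceeded Trbv12-1 by 2.51 ± 0.352 on the log2 TPM scale, and Trbv13-2 exceeded Trbv12-2 by 1.78 ± 0.107 (SD, n = 4), each in all 4 libraries. These are folds of 5.71 and 3.44. An exact two-sided sign-flip permutation, which was not among the planned tests, gave p = 0.13 for each pair. That is the lowest p this test can give with 4 libraries, so it only restates the shared sign. In the third pair Trbv12-3, a pseudogene, was at 0 in every library beside Trbv13-3 at 100 ± 7.15 TPM. Trbv2 and Trbv3, 294 bases apart, held shares of 8.04% ± 0.630 and 8.60% ± 0.937, with overlapping ranges. By TPM, the unit of the pairs above, their ranges did not overlap. Trbv3 lay at 94.7 to 118.7 TPM and Trbv2 at 72.7 to 89.4 TPM.

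The families are also where read assignment is least certain. Trbv13-2 and Trbv13-3 were 90.6% identical over their aligned transcripts, with a longest shared run of 50 bases. Trbv12-1 and Trbv12-2 were 88.3% identical with a run of 44 bases, and Trbv12-2 and the pseudogene Trbv12-3 were 83.0% identical with a run of 53 bases. Outside the 2 families the longest shared run of any pair was 23 bases. How many read pairs were left out or moved between family members was not measured.

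Functional and pseudogene segments were set far apart. All 22 functional segments had a count in every library and 21 reached 1 TPM in every library. Of the 13 pseudogenes 11 were at 0 in every library, and the 13 together held 0.166% ± 0.0734 of the summed counts. The 22 functional segments have 2 exons each in the annotation, whereas 11 of the pseudogenes have 1.

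Trbv24 was the pseudogene with the most counts, with 5, 21, 17 and 12 read pairs and shares of 0.0528, 0.251, 0.157 and 0.156% in replicates 1 to 4. It was counted in every library, and lowest in replicate 1. Trbv22, the other pseudogene with a count, had 2, 0, 3 and 0 read pairs. RefSeq types Trbv24 as a segment and Trbv29 as a pseudogene, the reverse of GENCODE, and agrees on the other 33. With RefSeq's types the pseudogene share became 1.84%, of which Trbv29 gives nearly all, at 29.8 ± 4.61 TPM.

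The median functional segment lay at 43.6, 42.0, 42.5 and 43.9 TPM in replicates 1 to 4 and the median pseudogene at 0. The difference between the medians was 5.46 ± 0.0319 on the log2(TPM + 1) scale (SD, n = 4). With a pseudogene median of 0 in every library its sign is fixed and its size is set by the pseudocount, so it is a description and no p is given. It was 6.44 with a pseudocount of 0.5, 8.75 with 0.1, and 4.45 over the segments with a count in at least 1 library. That last value sets the 22 functional segments against only 2 pseudogenes, Trbv22 and Trbv24, which were kept because they had counts.

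**Figure D3:**
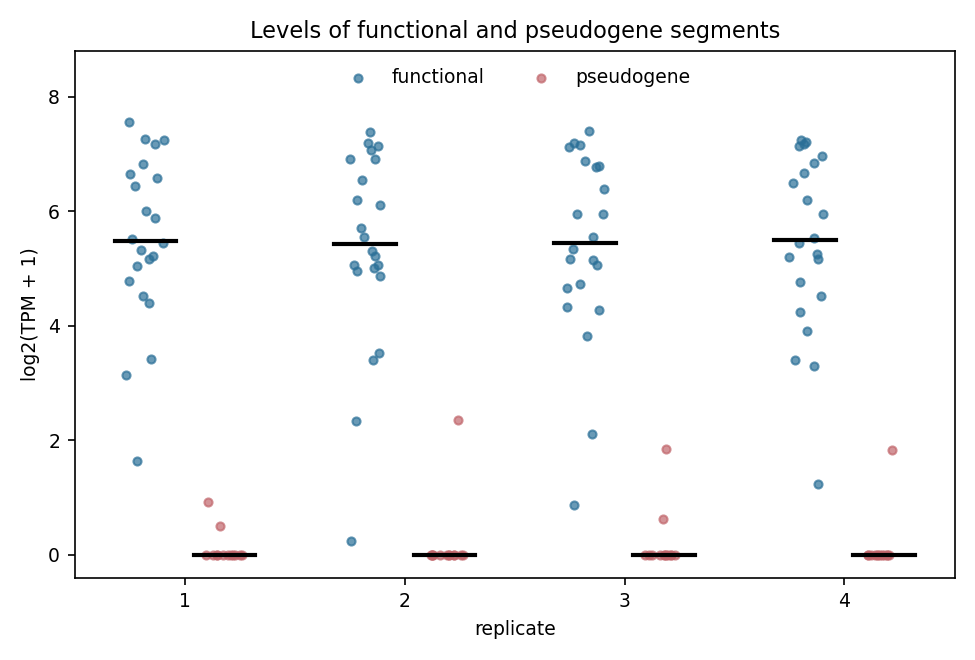
Level of each segment on the log2(TPM + 1) scale in each replicate, functional segments blue and pseudogenes red, with the median of each as a black line. The functional medians lie between 5.42 and 5.49 and the pseudogene medians at 0.

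The 4 libraries gave much the same usage. Over the 22 functional segments Pearson r of the shares was 0.974 to 0.991 and Spearman rho 0.967 to 0.991 across the 6 pairs of libraries. The share of summed counts that would have to move to turn one library's usage into another's was 4.17 to 5.82%. The pairs alike in Xist were not the closest: r was 0.982 for replicates 1 and 2 and 0.983 for replicates 3 and 4, against 0.991 for replicates 1 and 3.

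The spread was larger than read counting gives for many segments. Over the 23 segments with a summed count of 20 or more, the chi-square of the segment by library table, divided by its degrees of freedom, was 4.53 over all 4 libraries and 3.09 to 5.78 for the pairs, where counting error alone gives about 1. Trbv4 gave 10.8% of the chi-square, Trbv3 9.24% and Trbv1 7.90%. Among the 19 segments at 1% or more the median SD was 1.94 times the counting SD, and 9 exceeded 2 times. Trbv13-2, Trbv14, Trbv31 and Trbv12-2 had an SD below the counting SD.

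**Figure D4:**
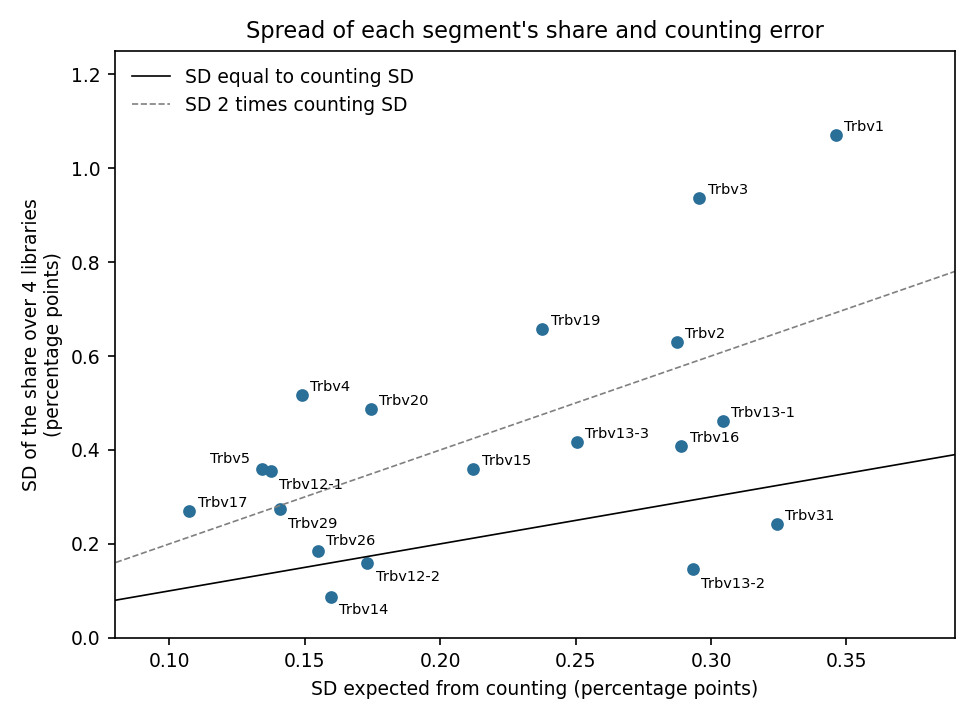
SD of each segment's share over the 4 libraries against the SD that counting error gives, both in percentage points, for the 19 segments with a mean share of 1% or more. The solid line marks equality and the dashed line 2 times the counting SD; Trbv1, Trbv3 and Trbv4 lie far above the dashed line and Trbv13-2, Trbv14 and Trbv31 below the solid one.

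No segment passed a test of its spread against that of other genes. With edgeR's quasi-likelihood fit over all genes, in which each gene's residual spread over the 4 libraries is set against genes of like abundance, 28 of 12285 tested genes (0.228%) passed an adjusted p of 0.05. Of the 21 Trbv segments that passed the filter on low counts 0 passed, 0 had an unadjusted p under 0.05 (all genes: 666, or 5.42%), and DESeq2 marked 0 as dispersion outliers. The lowest was Trbv4, with an edgeR adjusted p of 0.9497 and an unadjusted p of 0.0726. The median SD of log2 CPM was 0.138 for the segments and 0.102 for all genes tested, at a median mean count of 254 against 1483. Each gene had 3 residual degrees of freedom, and the power of the test for spreads of this size was not measured. The 0 calls therefore do not show that the segments spread no more than other genes.

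Of the functional segments, the shares of Trbv1, Trbv4, Trbv19 and Trbv23 were lowest in replicate 4. Those of Trbv2, Trbv13-1, Trbv15, Trbv16, Trbv20, Trbv26, Trbv29 and Trbv30 were highest there. Some markers of other cells, though not all, were also lowest in replicate 4. Cd8a, a chain of the CD8 coreceptor, lay at 0.990, 1.06, 0.831 and 0.225 TPM in replicates 1 to 4, whereas Cd8b1, the other chain, lay at 60.1, 61.1, 53.3 and 55.5 TPM and was lowest in replicate 3. Of the B cell genes, Cd79a, a chain of the B cell receptor complex, lay at 2.39, 2.46, 1.46 and 0.307 TPM in the same order, and its partner Cd79b at 2.78, 0.945, 1.70 and 0.885 TPM. Ms4a1, which encodes the surface antigen CD20, lay at 0.622, 0.459, 0.411 and 0.205 TPM. These 3 genes were lowest in replicate 4, and none of them reached 1 TPM in every library. Their part in the segment shares was not tested. The labelled cell type was matched by 6 of 6 T cell markers at 1 TPM in every library, among them Cd4 at 749 ± 30.2 TPM. Of 5 gamma-delta T cell markers 1 reached 1 TPM in every library, Trdc, at 1.11, 1.22, 1.15 and 1.19 TPM, and was lowest in replicate 1. None of 3 NK, 1 NKT and 3 macrophage markers reached it, and Klra4 and Csf1r among them had their highest values, 0.120 and 0.0762 TPM, in replicate 4. NKT cells are known for biased use of Trbv13-2, Trbv29 and Trbv1, and their marker Zbtb16 had at most 7 read pairs in a library. Whether such cells contributed to the shares of these segments was not tested.

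The rest of the beta locus was counted in the same libraries. The constant regions Trbc1 and Trbc2 lay at 805 ± 47.8 and 1241 ± 17.5 TPM, and the summed Trbv level was 0.702 ± 0.0207 of their sum (0.674 to 0.724). Trbc1 and Trbc2 are near-identical, so their own levels are uncertain. Trbc1 took 41.2% ± 1.72 of the constant-region counts, with 39.5, 43.6, 41.0 and 40.8% in replicates 1 to 4. The J segments of the first cluster, which lie before Trbc1, took 40.5% ± 3.38 of the J counts, with 45.3, 40.3, 37.7 and 38.8%. Replicate 1 thus had the lowest Trbc1 share and the highest first-cluster J share. J counts were 19.2% ± 1.18 of V counts. Trbd1 had 237, 157, 222 and 149 read pairs and Trbd2 96, 129, 139 and 76; these segments are 12 and 14 bases long, so no level per length is given.

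Of the J segments Trbj2-7 led with 14.4% ± 1.12 of the J counts, followed by Trbj2-6, which GENCODE types as a pseudogene, with 10.5% ± 1.13. Among V segments the pseudogene type went with 0 counts in 11 of 13, whereas this J segment had 161 to 210 read pairs in every library. Pairs that span a J and a V or C segment may have been left out of the counts. J counts therefore need not follow how often a J segment is joined, which was not tested. In the spread test 0 of 16 D and J segments and 0 of 2 constant regions passed (lowest edgeR adjusted p 0.954).

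Genes that lie among the segments were at or near 0. Of the 14 protein-coding genes between the first and the last Trbv segment, which include the trypsinogen genes, 10 were at 0 in every library and none reached 1 TPM in every library. The highest count was 15 read pairs, for Prss2.

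The recombination genes separated by role. Rag2, a subunit of the recombinase, was at 0 in every library, and Rag1, its catalytic partner, had 0, 0, 6 and 6 read pairs in replicates 1 to 4. Dntt, the polymerase that adds bases at the joints, had 11, 6, 4 and 0, and Ptcra, the chain that pairs with a new beta chain in thymocytes, 0, 1, 0 and 4. The other 8 of the 12 genes, whose products repair DNA ends or bend DNA in many cell types, reached 1 TPM in every library, from 4.10 ± 0.28 TPM for Dclre1c to 147 ± 1.61 TPM for Xrcc5. All 7 receptor complex genes reached 1 TPM in every library, with Trac at 1883 ± 25.6, Cd3d at 379 ± 18.5, Cd3e at 249 ± 19.8, Cd247 at 133 ± 1.29 and Cd3g at 132 ± 10.1 TPM.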

How the data were processed

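Whole-number counts of read pairs for each gene, not normalized, were deposited by the authors in 1 file per library. Per the file headers, pairs were counted with featureCounts 1.4.6-p4 over exons grouped by gene with strand setting 2, both mates mapped, on GENCODE M13; the aligner was STAR (version: not given in the sources used here). Coordinates are of build mm10, as the labels state. The recorded command has no setting for pairs that match several places or genes. By default such pairs are left out, so pairs that span V and J or C segments may be missing, in a number not measured here. In the labels the assay title reads total RNA-seq while the library protocol named is a polyA+ one.

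Symbols, types and sequences came from GENCODE M21, in which all 35 segments have the coordinates of the files; 50376 of 50600 genes matched. RefSeq gave the alternative types. TPM was computed from counts and deposited exonic length. All segments at a mean share of 1% or more are named with their values. The segments and gene lists were chosen with earlier results of these data known. The spread test used R 4.3.3 and its package edgeR 4.0.16 (TMM, filterByExpr, intercept-only, robust quasi-likelihood; residual on 3 degrees of freedom against the trended prior, upper tail, Benjamini-Hochberg at 0.05), with DESeq2 1.42.0 as an alternative, and checked on simulated data. Log2 CPM used a prior count of 2. Other steps ran in Python 3.11.15 with biopython 1.88, pandas 2.3.3, numpy 2.4.6, matplotlib 3.10.9 and scipy 1.17.1. Intervals are Wilson at 95%, the limit for a count of 0 is 3 counts, and both cover counting error only. Alternatives covered scaling, filters, exonic length, gene types, detection floors, pseudocounts, the near-identical families and each library left out. A marker gene of the lists is not reported here.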

Additional observations from a re-analysis of the deposited data

Results flagged for a closer look

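The screen for a library far from the other 3 covered 69 values: shares, sums, locus ratios, the effective number and the TPM of single genes. Of these, 3 passed Dixon's 95% criterion for 4 libraries. Chance passes about 1 in 20, so about as many would pass by chance. The share of Trbv4 was 1.22% in replicate 4, with the other libraries at 2.17 to 2.33%. The Trbv12 family summed to 4.84% in replicate 2, against 4.34 to 4.39% in the others. The segments Trbv20 to Trbv30 together summed to 9.40% in replicate 4, against 7.48 to 7.80% in the others.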

How the results depend on the processing

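No Trbv segment passed the spread test of edgeR or DESeq2 under any of the scaling, filter, prior and tool alternatives or with any library left out. Every share at 1% or more stayed within 1 SD when a library was left out or when functional segments alone formed the denominator. Neither outcome is a check of stability. Leaving out 1 of 4 libraries cannot move a mean by 1 SD, and pseudogenes held only 0.166% of the denominator. Divided by exonic length 10 of 19 shares moved by more than 1 SD, Trbv2 to 5.76% and Trbv19 to 3.73%. Of the 9 segments above 5%, 8 stayed so. Per length the effective number of segments was 16.2 and the first 12 and next 12 segments held 30.6 and 53.4%. Over functional segments alone the effective number was 15.8. Without the Trbv12 and Trbv13 families the leading share was 16.8%, the effective number 11.6 and what was left of the first 12, next 12 and last 11 segments held 45, 33.1 and 21.9%; the removed segments leave both the denominator and the first 2 of these groups. RefSeq types gave a pseudogene share of 1.84%, and the summed level is 1434.5 in TPM. The following alternatives were chosen after seeing the data. The median r between libraries was 0.983 without the 2 families, and 0.982 to 0.990 with 1 library left out. Chi-square per degree of freedom was 3.94 to 5.03 with 1 library left out, and 3.92 to 4.30 without Trbv1, Trbv4 or both. Libraries held 7716 to 10806 Trbv counts, so segments under about 0.0389% could be missed. No paired analysis was possible because there is 1 group.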
